A study of Mus musculus with 4 samples.

Results

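The expression of 10 genes for transcription factors that hold fat cell precursors back or that direct them to other fates was followed across 4 arrays of mouse DFAT cells. The genes were Gata2, Gata3, Gata6, Sox9, Nr2f1, Nr2f2, Twist1, Hes1, Runx1t1 and Zfp521, chosen by name, and all of their probe sets with a single gene symbol in the platform annotation were taken. These were 26 of the 45101 probe sets on the array, and the 10 genes were among 18193 named genes. DFAT, or de-differentiated fat, cells are fibroblast-like cells obtained in culture from mature adipocytes that have shed their lipid. They were kept in DMEM with 10% FBS under 5% CO2, and no group carried a labelled genetic change. The DMSO array came from cells given the solvent, and the Y-27632 array from cells given this small-molecule inhibitor of the ROCK kinases, which promote actomyosin contraction. The other pair came from cells transfected with control siRNA or with Mkl1 siRNA, which targets the actin-binding coactivator of SRF now named Mrtfa. The labels give no dose, duration, siRNA sequence, mouse strain or age, and do not say whether an adipogenic medium was used.

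Fat cell formation runs through a cascade in which C/EBP proteins induce the nuclear receptor PPARG and CEBPA, and these maintain the mature programme. Several transcription factors oppose it: GATA2 and GATA3 restrain PPARG and bind C/EBP proteins, SOX9 keeps mesenchymal precursors in a proliferative state and directs cartilage formation, and RUNX1T1 and ZFP521 act as co-regulators that limit early adipogenic factors. HES1 is the repressor at the end of the Notch pathway, TWIST1 is a mesenchymal bHLH factor, and NR2F1 and NR2F2 (COUP-TFI and COUP-TFII) are orphan nuclear receptors of mesenchymal cells. GATA6 is best known for heart and endoderm development.

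There was 1 array per group, so the differences have no replicate error and no p-value, and this limits their precision. Levels are log2 RMA signals, in which 1 unit is a 2-fold difference, and differences are treatment minus its own control. A gene was read from its probe set with the highest mean, and a gene was counted as measured if any array reached 5.69, the median over all values, which held for 11600 genes. All 10 genes were among them, and each stood above 5.69 on all 4 arrays. The control siRNA minus DMSO difference of each of the 10 genes is given as background. Mrtfa was at 8.55 with control siRNA and at 7.70 with Mkl1 siRNA. Mature adipocyte markers were higher on both treated arrays, with 10 of 12 measured and 8 of 10 at least 2-fold higher in each comparison. The linear signal summed over all 12 was 24779 with DMSO, 55852 with Y-27632, 25195 with control siRNA and 58387 with Mkl1 siRNA. Of the fibroblast or stromal markers 9 of 10 were measured, and their summed linear signal ranged from 75672 with Mkl1 siRNA to 103440 with Y-27632. Above DMSO with Y-27632 were 7 of the 9, and 8 of the 9 were below control siRNA with Mkl1 siRNA. Between the controls 4 were higher and 5 lower (median -0.01), and 2 of the 5 were at least 2-fold lower, Lum at -4.28 and Dcn at -2.07. Lum was higher by 2.08 with Y-27632. In bulk RNA, fewer cells of a type and less RNA per cell cannot be told apart, and the part of these markers in the results below was not tested.

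With Mkl1 siRNA, Sox9, Gata3 and Hes1 were lower than with control siRNA and Nr2f1 was higher. The other 6 genes differed by 0.30 or less on the probe set used for the gene. Other probe sets reached -0.49 for Runx1t1 and 0.49 for Nr2f2. With Y-27632 the differences of the 10 genes ran from -0.50 for Gata3 to 0.45 for Nr2f1. Sox9 was the only one of the 10 to reach 2-fold in either treatment comparison. With Mkl1 siRNA, 1.74% of measured genes were at least 2-fold lower and 1.79% at least 2-fold higher, against 1 and 0 of the 10 genes. At 1.5-fold, 3 of the 10 were lower and 1 was higher, where 5.91% and 5.42% of measured genes were. With Y-27632, none of the 10 reached 2-fold or 1.5-fold in either direction, where 1.49% and 4.33% of measured genes did. Between the control arrays none reached 2-fold (2.04% of measured genes), and Gata3 and Zfp521 reached 1.5-fold (7.52%). The median difference of the 10 genes was -0.03 with Y-27632, 0.10 with Mkl1 siRNA and -0.23 between the controls, beside medians of 0.0023, 0.00055 and -0.0089 over all measured genes.

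**Figure D1:**
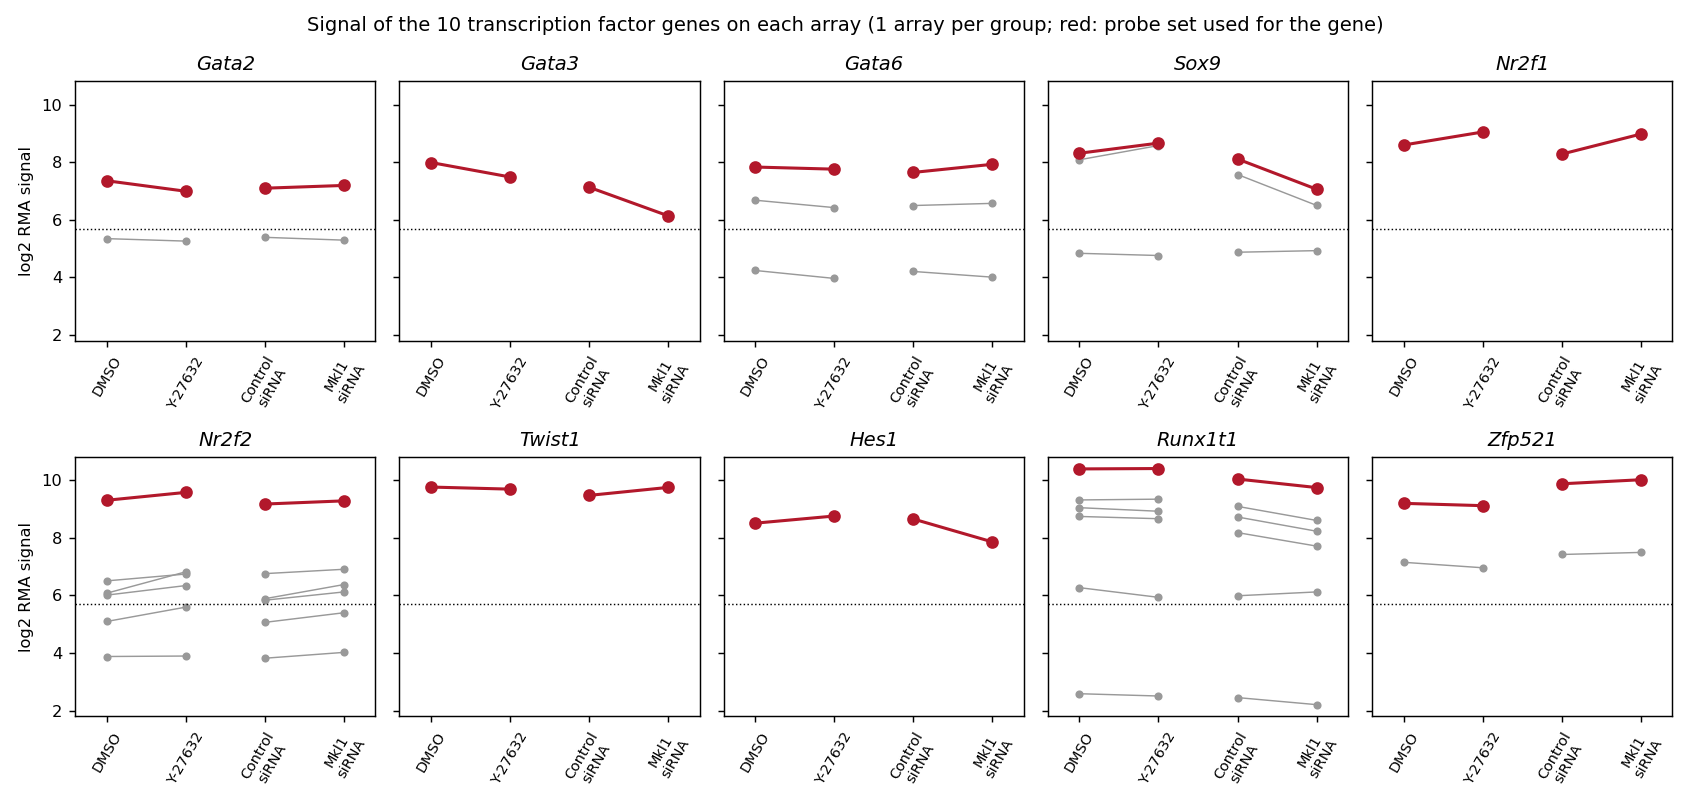
Each panel plots the log2 RMA signal of 1 gene on the 4 arrays, with red for the probe set used for the gene, grey for its other probe sets, lines joining each treatment to its own control, and a dotted line at the median of all values (5.69). The Mkl1 siRNA array is the lowest of the 4 for Gata3 (6.14), Sox9 (7.06) and Hes1 (7.86), and both treated arrays stand above both controls for Nr2f1.

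Sox9 had a log2 signal of 8.31 with DMSO, 8.66 with Y-27632, 8.11 with control siRNA and 7.06 with Mkl1 siRNA. The Mkl1 siRNA array was the lowest and the Y-27632 array the highest, and both controls lay between them. Sox9 was lower with Mkl1 siRNA, with a difference of -1.05, a ratio of 0.483, and higher by 0.35 with Y-27632, a ratio of 1.28. Among measured genes 1.53% were as low or lower with Mkl1 siRNA, and 7.14% were as high or higher with Y-27632. The control arrays differed by -0.20. A second probe set read 8.08, 8.58, 7.57 and 6.50 on the same arrays in that order, with differences of 0.49 and -1.07 in the same directions, and its controls differed by -0.51, more than its Y-27632 difference. The remaining Sox9 probe set, below 5.69 on all 4 arrays, differed by -0.08 and 0.06. With it included, the mean of the 3 Sox9 probe sets was -0.69 with Mkl1 siRNA, short of 2-fold.

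Neighbours of SOX9 in the cartilage programme were mostly at low signal. Of 14 listed cartilage genes known as SOX9 targets, 5 were measured, and with Y-27632 their median was 0.05, while Mkl1 siRNA gave -0.17. Col11a1, a fibrillar collagen chain, stood at 7.89 with DMSO, 8.11 with Y-27632, 8.57 with control siRNA and 6.73 with Mkl1 siRNA. Its difference of -1.84 with Mkl1 siRNA was the only one past 2-fold among the 5 measured genes, and its control arrays differed by 0.68. Col2a1, the main cartilage collagen, differed by -0.21 and -0.17. Of 8 chondrocyte markers 3 were measured. The linear signal summed over all 8, those below the filter included, ran from 284 to 324 over the 4 arrays. Among 13 SOX family genes 7 were measured, with medians of 0.06 and -0.05. Sox9 was the farthest of them in both comparisons. Sox12 differed by 0.44 and Sox5 by -0.42 with Mkl1 siRNA, and Sox6 by -0.31 and Sox13 by -0.27 with Y-27632. With Mkl1 siRNA the probe sets ran from -0.16 to 0.44 for Sox12 and from -0.56 to 0.35 for Sox5. With Y-27632 those of Sox6 ran from -0.31 to 0.19.

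Gata3 had signals of 7.99 with DMSO, 7.49 with Y-27632, 7.13 with control siRNA and 6.14 with Mkl1 siRNA, read by 1 probe set. DMSO was the highest and Mkl1 siRNA the lowest, and control siRNA lay below the Y-27632 array. Gata3 was lower in both comparisons, with a difference of -0.99 with Mkl1 siRNA, a ratio of 0.503, and of -0.50 with Y-27632, a ratio of 0.706. As low or lower were 1.76% and 1.95% of measured genes. Control siRNA was itself below DMSO, at -0.86, and 1.72% of measured genes were as low or lower there. Against the other control, Mkl1 siRNA stood at -1.85 and Y-27632 at 0.36, so that the direction with Y-27632 depended on which control was used.

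The Gata3 promoter is printed because Gata3 is the member with the widest range over the arrays, 1.85, and its window was in the RefSeq promoter table (build GRCm38.p6). The sequence covers the 250 bases before the start, chr2:9878601-9878850 on the minus strand, and capitals mark the N-box, CACNAG on either strand, a class of element that HES repressors can bind.
Gata3 promoter: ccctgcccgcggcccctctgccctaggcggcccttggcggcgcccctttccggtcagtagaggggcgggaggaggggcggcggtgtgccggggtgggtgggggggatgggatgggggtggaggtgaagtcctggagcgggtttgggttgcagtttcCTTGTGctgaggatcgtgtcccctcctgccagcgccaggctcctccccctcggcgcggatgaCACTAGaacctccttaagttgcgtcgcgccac
The 2 N-boxes begin 94 and 32 bases before the start. An N-box was found in 42.5% of 32851 windows of 300 bases (250 before and 50 after a start). Windows were found for 5 of the 10 genes, Gata2, Gata3, Nr2f1, Nr2f2 and Twist1, 7 windows in all. None of the 7 held the CArG box of SRF, against 1.63% of all windows, and the TEAD motif GGAATG was in 1 of the 7, a window of Gata2, and in 14.7% of all. The E-box CANNTG, the class of site bound by TWIST1 with its partners, was in 4 of the 7 windows and in 72.3% of all windows, and N-boxes were in 2 of the 7. Matches on both strands were counted; the E-box reads the same on both, and these motifs did not overlap in the printed windows.

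Gata2 stood at 7.35 with DMSO, 6.99 with Y-27632, 7.10 with control siRNA and 7.19 with Mkl1 siRNA. The DMSO array was the highest and the Y-27632 array the lowest. Its differences were -0.36 with Y-27632, 0.10 with Mkl1 siRNA and -0.26 between the controls, and its other probe set, below 5.69, gave -0.09, -0.10 and 0.05. Both Gata2 probe sets have names ending in _a_at, a suffix for probe sets matching more than 1 transcript of a gene. Gata6 stood at 7.83, 7.76, 7.64 and 7.92 on the arrays in the same order, a range of 0.28 that was the narrowest of the 10 genes. Its differences were -0.07 with Y-27632, 0.28 with Mkl1 siRNA and -0.19 between the controls, and its 3 probe sets ran from -0.28 to -0.07 with Y-27632 and from -0.20 to 0.28 with Mkl1 siRNA. The other measured genes of this list were the FOG cofactors Zfpm1, at -0.09 and -0.06, and Zfpm2, at -0.17 and -0.43. All 5 measured genes of the GATA and FOG list were below DMSO with Y-27632 (median -0.17), where 5733 of the 11600 measured genes were. The other Zfpm2 probe set stood at 0.03 there. With control siRNA 4 of the 5 genes were also below DMSO. With Mkl1 siRNA 2 were above and 3 below control siRNA, and Gata1, Gata4 and Gata5 were below the filter. Of 7 haematopoietic markers, a lineage in which GATA factors are also known, 2 were measured. The linear signal summed over all 7, those below the filter included, was 200 to 219.

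Hes1 had signals of 8.51 with DMSO, 8.76 with Y-27632, 8.65 with control siRNA and 7.86 with Mkl1 siRNA, read by 1 probe set. The Mkl1 siRNA array was the lowest, and the other 3 lay within 0.25 of each other. Hes1 was lower with Mkl1 siRNA, with a difference of -0.80, a ratio of 0.576, as 3.13% of measured genes were or more so, and it differed from DMSO by -0.65. With Y-27632 it was higher by 0.25, and the control arrays differed by 0.14.

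Of the 9 listed HES, HEY and other Notch target genes 8 were measured. With Mkl1 siRNA 7 of the 8 were below control siRNA, with a median of -0.14, where 5775 of the 11600 measured genes were below it. Apart from Hes1 and Hey2, the lower genes stood at -0.21 (Hes5) to -0.07 (Dtx1). With Y-27632 4 were above and 4 below DMSO. Hey2, a HES-related repressor, was the farthest, at 7.38 with DMSO, 7.94 with Y-27632, 5.77 with control siRNA and 4.18 with Mkl1 siRNA. Its control siRNA level was just above 5.69 and its Mkl1 siRNA level under it, with a difference of -1.59. With Y-27632 it differed by 0.55, and the control arrays differed by -1.61. The other named genes of this list, Hes5, Hes6 and Hey1, differed by -0.21, 0.14 and -0.15 with Mkl1 siRNA. Upstream of them, Notch ligands, receptors and modifiers had 14 of 20 genes measured, a median of 0.13 with Y-27632 and one of 0.02 with Mkl1 siRNA, and none at least 2-fold from its control. The receptor Notch1 was higher by 0.29 and 0.42, Notch2 by 0.33 and 0.33, and the ligand Jag1 by 0.47 and 0.50. Control siRNA also stood above DMSO, by 0.13 for Notch1, 0.16 for Notch2 and 0.35 for Jag1. However, the Notch2 probe sets ran from -0.14 to 0.33 with Y-27632 and from -0.06 to 0.33 with Mkl1 siRNA. Those of Jag1 ran from -0.28 to 0.50 with Y-27632 and from -0.14 to 0.50 with Mkl1 siRNA. Notch4, at 5.29, 5.97, 5.08 and 4.49, differed by 0.68 and -0.59 near the filter, and its 3 probe sets disagreed in sign in both comparisons.

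Nr2f1 had signals of 8.60 with DMSO, 9.05 with Y-27632, 8.28 with control siRNA and 8.97 with Mkl1 siRNA, read by 1 probe set. Both treated arrays stood above both controls. Nr2f1 was higher by 0.45 with Y-27632, a ratio of 1.37, and by 0.70 with Mkl1 siRNA, a ratio of 1.62. As high or higher were 4.72% and 3.73% of measured genes. The controls differed by -0.32, with control siRNA the lower, and against the other control the differences were 0.77 and 0.38.

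Nr2f2, the close relative of Nr2f1, was at 9.30 with DMSO, 9.58 with Y-27632, 9.17 with control siRNA and 9.28 with Mkl1 siRNA, and differed by 0.27 and 0.11, with -0.13 between the controls. The Y-27632 array was the highest, and the Mkl1 siRNA array lay between both controls. All 6 Nr2f2 probe sets were above their control in both comparisons, from 0.02 to 0.74 with Y-27632 and from 0.11 to 0.49 with Mkl1 siRNA. These probe sets read 1 gene on the same arrays and are no replicates of a condition. Nr2f6, the remaining COUP-TF gene, differed by -0.12 and -0.19.

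The promoters of Nr2f1 and Nr2f2 are shown because both genes were above their control in both treatment comparisons. They are 250 bases of RefSeq windows (GRCm38.p6) before a start on the minus strand, chr13:78196450-78196699 for Nr2f1 and chr7:70366747-70366996 for Nr2f2, with the E-box CANNTG in capitals where it ends before the start.
Nr2f1 promoter: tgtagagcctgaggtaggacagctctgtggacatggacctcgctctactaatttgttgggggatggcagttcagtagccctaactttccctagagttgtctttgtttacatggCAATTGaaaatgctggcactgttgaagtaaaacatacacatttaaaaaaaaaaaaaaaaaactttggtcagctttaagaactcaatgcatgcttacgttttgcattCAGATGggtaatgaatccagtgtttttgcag
Nr2f2 promoter: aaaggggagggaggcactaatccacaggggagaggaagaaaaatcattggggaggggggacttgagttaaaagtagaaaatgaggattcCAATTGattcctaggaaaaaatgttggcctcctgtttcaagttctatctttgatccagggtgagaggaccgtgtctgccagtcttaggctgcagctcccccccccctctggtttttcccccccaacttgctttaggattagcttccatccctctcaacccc
Both held an E-box with the letters CAATTG, 137 bases before the start in Nr2f1 and 161 in Nr2f2, and Nr2f1 held a second, CAGATG, at 31. The other Nr2f1 window in the table held none. The GC content over 300 bases was 43.0% for the Nr2f1 window printed here and 68% for the other Nr2f1 window. It was 49.7% for the Nr2f2 window, and the median of all windows was 52.7%.

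Twist1 had signals of 9.76 with DMSO, 9.69 with Y-27632, 9.47 with control siRNA and 9.75 with Mkl1 siRNA. Control siRNA was the lowest array and the other 3 lay within 0.072 of each other. Twist1 differed by -0.07 with Y-27632 and by 0.28 with Mkl1 siRNA, and control siRNA was below DMSO, at -0.29, so that Mkl1 siRNA and DMSO differed by -0.01. TWIST proteins act as dimers with E proteins, and ID proteins take up those partners. All 13 genes of this list were measured. Their median was 0.11 with Y-27632, where 1 gene was at least 2-fold higher, and 0.27 with Mkl1 siRNA, where 2 were, and none was 2-fold lower. Id2 stood at 7.12 with DMSO, 8.38 with Y-27632, 8.47 with control siRNA and 9.78 with Mkl1 siRNA, higher by 1.26 and 1.31, and by 1.35 with control siRNA over DMSO. Id1 was higher by 0.45 and 1.0, and Id4 by 0.15 and 0.65, again with control siRNA above DMSO, by 0.57 and 0.89; the 3 Id4 probe sets ran from -0.34 to 0.25 with Y-27632 and from 0.65 to 2.41 with Mkl1 siRNA. Zeb1, a zinc-finger repressor of epithelial genes, differed by 0.11 and -0.75, with -0.53 between the controls. Its 4 probe sets ran from -0.75 to 0.13 with Mkl1 siRNA.

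Runx1t1 had signals of 10.39 with DMSO, 10.41 with Y-27632, 10.04 with control siRNA and 9.75 with Mkl1 siRNA. The transfected arrays lay below the other pair, with Mkl1 siRNA the lowest. The differences were 0.01 with Y-27632, -0.30 with Mkl1 siRNA and -0.35 between the controls. The probe set used has a name ending in _x_at. Without _s_at, _x_at and _a_at probe sets the differences were 0.03, -0.49 and -0.22. Of its 6 probe sets 5 passed the filter, and 4 of these 5 were below control siRNA with Mkl1 siRNA, at -0.49 to -0.30, while the other stood at 0.13. All 6 were lower with control siRNA than with DMSO. With Y-27632 the 6 probe sets ran from -0.34 to 0.03 and differed in sign. Of 7 RUNX and ETO genes 6 were measured, none past 2-fold, and with Y-27632 their median was -0.03, while Mkl1 siRNA gave -0.0058. Cbfb, the partner subunit of the RUNX proteins, was higher by 0.20 and 0.69, and Runx1, Cbfa2t2 and Cbfa2t3 differed by 0.101 or less in both.

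Zfp521 had signals of 9.20 with DMSO, 9.12 with Y-27632, 9.88 with control siRNA and 10.02 with Mkl1 siRNA. Both transfected arrays stood above the other pair. Control siRNA was above DMSO by 0.68, a ratio of 1.60, and 2.34% of measured genes were as high or higher there, whereas the treatments differed from their own controls by -0.08 and 0.14. The second Zfp521 probe set gave 0.27 between the controls, and -0.19 and 0.07 with the treatments. ZFP521 is known to oppose ZFP423 and to bind EBF1, a factor of early adipogenesis. Zfp423, a preadipocyte regulator of the same family, was at 5.75, 6.57, 5.93 and 7.28 on the 4 arrays in the same order, higher by 0.82 with Y-27632 and by 1.35 with Mkl1 siRNA. In this list of 6 genes with 5 measured, Ebf1 was higher by 0.23 and 0.22, Ebf2 differed by -0.0037 and -0.12, and Ebf3 by -0.35 and -0.39, and the list medians were -0.0037 and 0.14; the controls differed by 0.19 for Zfp423, the only measured gene of the list past 2-fold in a treatment comparison.

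**Figure D2:**
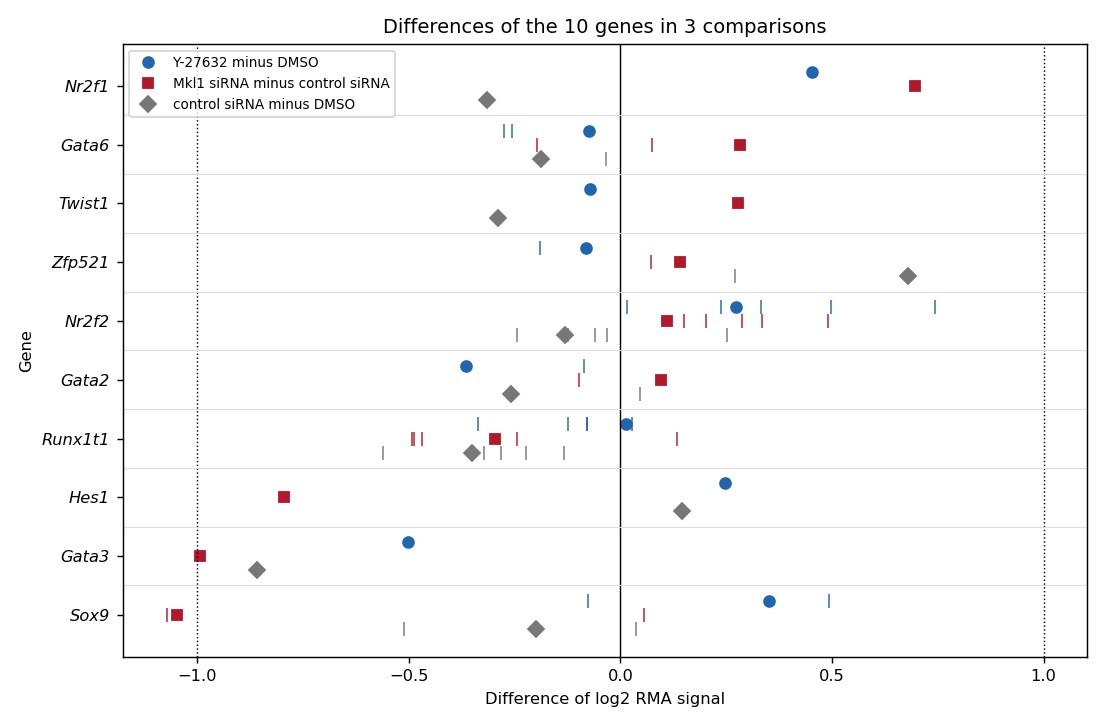
Points are the differences of log2 RMA signal of the 10 genes in both treatment comparisons and between the controls, ticks are the gene's other probe sets, and dotted lines mark 2-fold. Sox9 lies past -1 with Mkl1 siRNA at -1.05. The control difference is larger in size than the Y-27632 difference for Gata3 (-0.86), Zfp521 (0.68), Runx1t1 (-0.35), Twist1 (-0.29) and Gata6 (-0.19).

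Set side by side, the treatment comparisons share no array. The sign of the difference was the same in 3 of the 10 genes, Gata3, Nr2f1 and Nr2f2, and in 57.6% of the 11600 measured genes. With the mean of all probe sets it was the same in 5 of 10, Gata2 and Runx1t1 included, where Gata2 with Mkl1 siRNA was at -0.0011, and with loess in 4 of 10, Runx1t1 included. Sox9 differed between the comparisons by -1.40 (Mkl1 siRNA difference minus Y-27632 difference) and Hes1 by -1.04, and these were the widest of the 10. The gap was -0.49 for Gata3 and 0.46 for Gata2, and ran from -0.31 to 0.35 in the other 6. With 1 array per group these gaps could not be tested. The range over the 4 arrays was at least 1 for 2 of the 10 genes, Gata3 and Sox9, and for 8.74% of measured genes, and its median was 0.71 for the 10 genes and 0.37 over all.

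**Figure D3:**
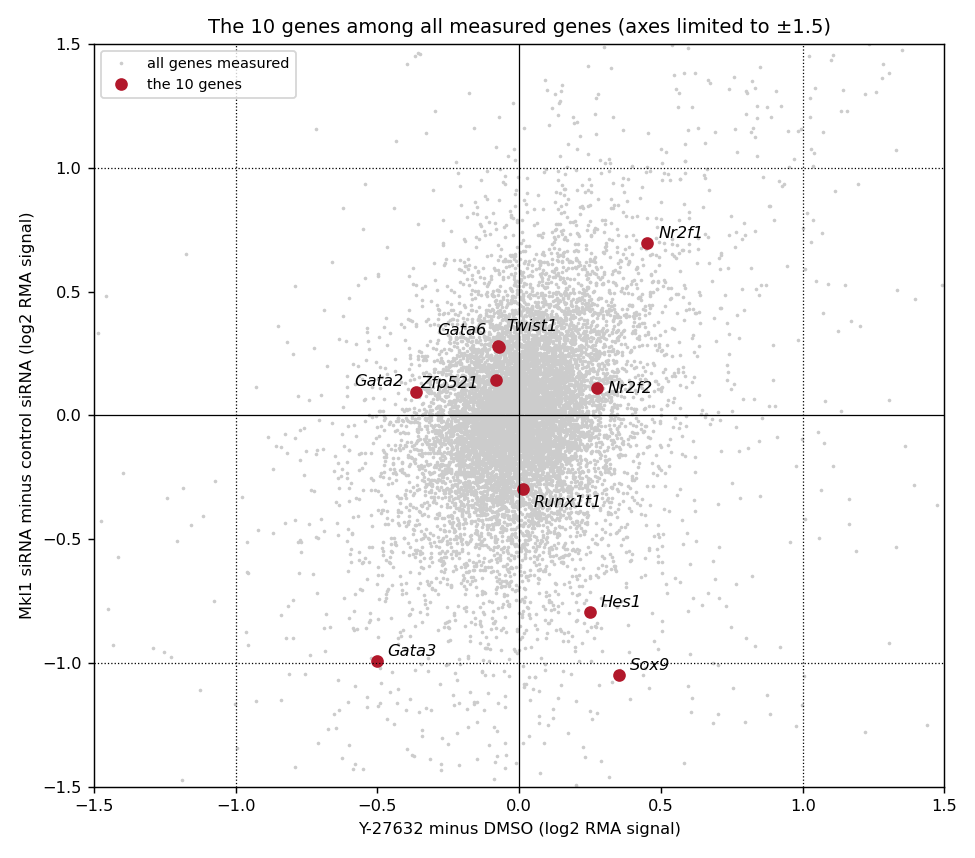
The x axis is the difference with Y-27632 and the y axis that with Mkl1 siRNA, in log2 RMA signal, with grey dots for measured genes, of which 161 lie outside the axes, red points for the 10 genes, and dotted lines at 2-fold. Sox9 and Hes1 lie to the right of 0 and below it, Gata3 is to the left and below, and Gata6 and Twist1 share a point.

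The genes closest to Gata3 and Sox9 in profile were sought among the 1013 other measured genes with a range of at least 1, by Euclidean distance between profiles centred on their mean over the 4 arrays. Closest to Sox9 were Rgmb, a BMP co-receptor, at a distance of 0.068, Cyria at 0.115 and the collagen chain Col1a1 at 0.130. Rgmb differed by 0.44 with Y-27632 and by -1.05 with Mkl1 siRNA, Cyria by 0.46 and -1.10, and Col1a1 by 0.18 and -1.05. Closest to Gata3 were Bcat1, a branched-chain aminotransferase, at 0.173, the ubiquitin-conjugating enzyme gene Ube2l6 at 0.186 and Stbd1, a glycogen-binding protein, at 0.213. Each was lower in all 3 comparisons, Bcat1 with differences of -0.43 with Y-27632, -1.10 with Mkl1 siRNA and -0.62 between the controls. A profile of 4 values is short, and many genes can share one.

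Other regulators of the same step were read from lists. The corepressors through which several of the 10 proteins act had 9 of 11 genes measured, none past 2-fold, and with Y-27632 their median was -0.01, while Mkl1 siRNA gave 0.22. Nrip1, a corepressor of nuclear receptors, was higher by 0.51 and 0.98, with 0.30 between the controls and 6 probe sets from -0.06 to 1.05 with Mkl1 siRNA, and the Groucho family genes Tle1 and Tle4 were higher by 0.59 and 0.76 with Mkl1 siRNA, where the 3 Tle4 probe sets ran from -0.42 to 0.76. Hdac3 differed by -0.06 and -0.47. Other inhibitors of adipogenesis had 14 of 17 genes measured and medians of -0.01 and -0.11, and Wnt5a with Y-27632 was the only measured one past 2-fold. In that list the clock-linked repressor Bhlhe40 differed by 0.25 and -0.99, with 0.22 between the controls. Klf2 differed by 0.12 and -0.77, with 0.25 between the controls. These signs were like those of Sox9 and Hes1, but against control siRNA the Y-27632 array stood at 0.03 for Bhlhe40 and -0.13 for Klf2. The deacetylase gene Sirt1 was at -0.01 and 0.91, with the controls at -0.44, and the ligand Wnt5a at 1.07 and 0.41. The 4 Wnt5a probe sets ran from 0.17 to 1.21 with Y-27632. The adipogenic transcription factors had 13 of 14 genes measured, 3 at least 2-fold higher in each comparison, and medians of 0.27 and 0.34; all 13 were above DMSO with Y-27632 and 9 of 13 above control siRNA with Mkl1 siRNA. Pparg was higher by 1.23 and 1.86, with 0.30 between the controls, and Cebpa by 1.11 and 1.45, with 0.57. Nr1h3 was higher by 0.40 and 0.65, with -0.37 between the controls. Klf15 was higher by 1.04 and 1.01, but its control siRNA level of 5.06 lay under 5.69 and below DMSO, at -0.97, so that Mkl1 siRNA and DMSO differed by 0.04. Pparg, Cebpa and Klf15 were the 3 of 13 measured adipogenic factors past 2-fold in both comparisons. Against control siRNA the Y-27632 array stood at 0.93 for Pparg and 0.53 for Cebpa, short of 2-fold, and at 2.01 for Klf15. Of the 10 opposing or lineage factors only Sox9 was past 2-fold from its own control, in 1 comparison.

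**Figure D4:**
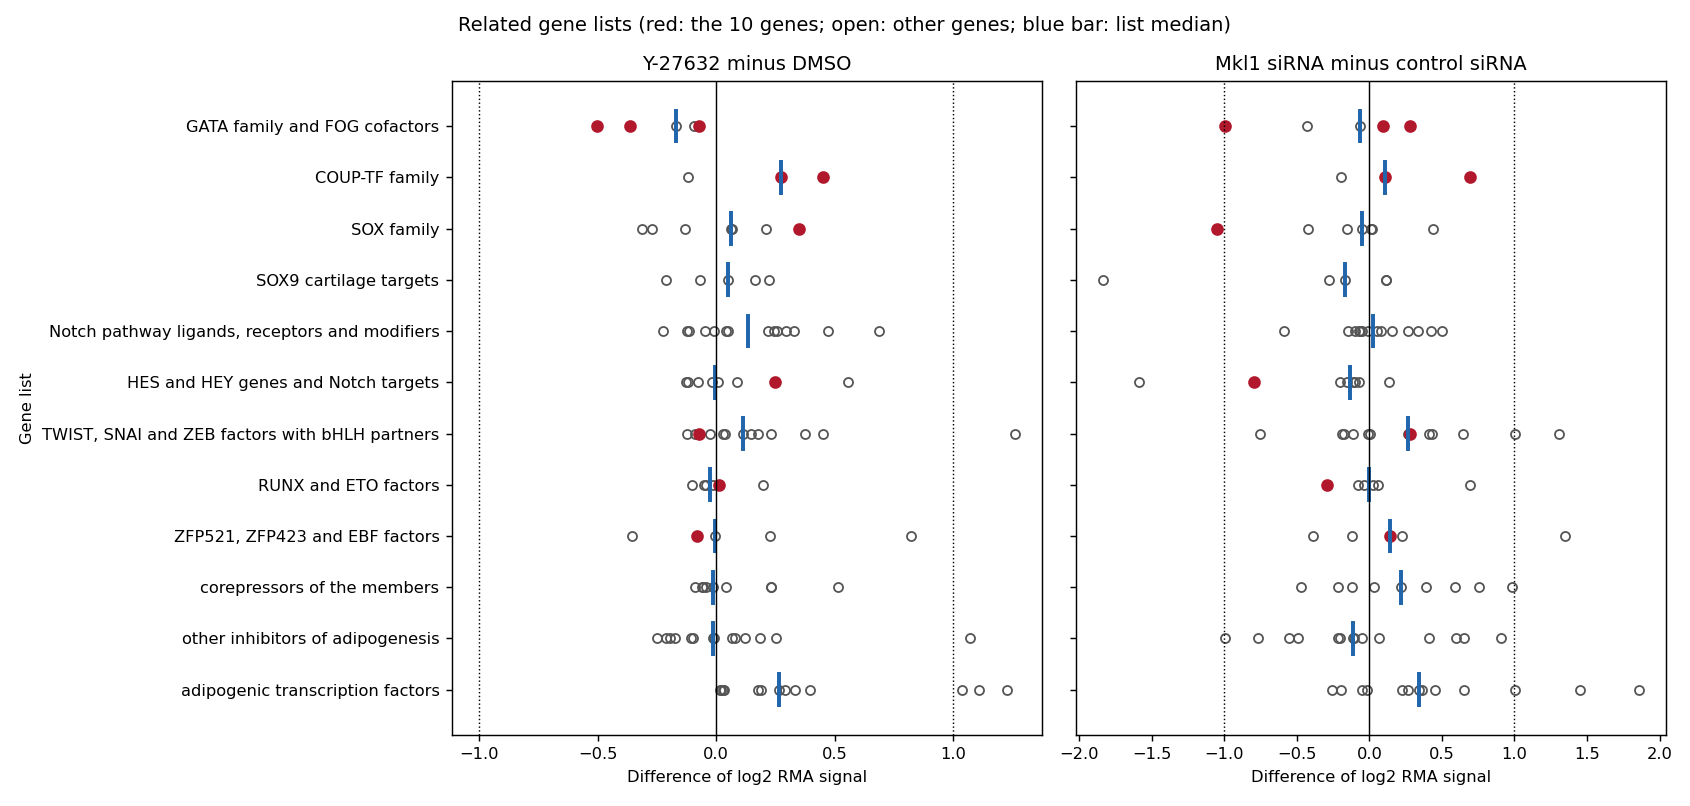
Each row is a gene list and each point a measured gene, plotted by its difference in log2 RMA signal with Y-27632 (left) and with Mkl1 siRNA (right), with red for the 10 genes, open points for other genes, a blue bar at the list median and dotted lines at 2-fold. The COUP-TF and adipogenic factor lists have medians above 0 in both panels (0.27 and 0.11, and 0.27 and 0.34), while the HES and HEY list has its median at -0.14 on the right.

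Markers of further cell types were mostly below the filter. Of 6 osteoblast markers 1 was measured, Sp7, at -0.29 and 0.03, of 7 skeletal myoblast markers 2, of 7 endothelial markers 1, and of 6 macrophage or leukocyte markers 2. Linear signals were summed over all markers with a probe set, those below the filter included. The sums ran from 146 to 172, 420 to 438, 144 to 174 and 301 to 400 over the 4 arrays. No measured gene of these lists was past 2-fold in a treatment comparison. No marker is listed at 0; the lowest value of any probe set on any array was 2.02.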

How the data were processed

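Biotin-labelled RNA from DFAT cells was measured on 4 Affymetrix mouse arrays, 1 per group, grouped by sample title. The file deposited by the authors holds a log2 signal for each probe set and array, and the submitters' processing notes name RMA. Its version and chip definition, and which arrays were normalised as a set, were not given in the sources used. RMA corrects background, sets all arrays to 1 distribution and summarises probes, which compresses weak differences. Values ran from 2.02 to 14.6, array medians from 5.67 to 5.71, and correlations between arrays from 0.987 to 0.995.

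The platform annotation gave 1 gene symbol to 34958 of 45101 probe sets, several to 932 and none to 9211; gene numbers of 34754 were found in a table of GRCm38.p6, used for names only. Genes took the probe set with the highest mean, and those whose highest array reached the median (5.69) were kept. Differences, counts from 2-fold and 1.5-fold and list medians were computed with Python 3.11.15 and pandas 2.3.3 and tested on simulated data; no test of the treatments was possible with 1 array per group. Named genes were the 10 members, up to 4 listed genes per list with the largest treatment difference, the 3 closest profiles of members with a range of at least 1, and Mkl1, Pparg and Cebpa. The members and lists were chosen with earlier results of these data known. Alternatives were other probe set rules, filters, centring, loess (span 0.3), the other control array and the lower threshold. Some listed genes and protein sequences were not analysed here. Promoters are from RefSeq.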

Additional observations from a re-analysis of the deposited data

Results flagged for a closer look

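Sox9 and Hes1 stood on opposite sides of their controls in the treatment comparisons, by more than the control arrays differed on the probe set used for each gene. Sox9 was at 0.35 with Y-27632 and -1.05 with Mkl1 siRNA, with -0.20 between the controls; on a second Sox9 probe set the values were 0.49, -1.07 and -0.51, so that there the control difference exceeded that with Y-27632. Hes1 was at 0.25 with Y-27632 and -0.80 with Mkl1 siRNA, with 0.14 between the controls. The difference between the treatments was not tested, since each group had 1 array. Against the other control the values were 0.55 and -1.25 for Sox9 and 0.10 and -0.65 for Hes1. The signs could not change there, because both genes were flagged for differences larger than that between the controls.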

How the results depend on the processing

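The number of the 10 genes at least 2-fold from control was 0 with Y-27632, under every alternative run, the other control array and the 1.5-fold threshold included. With Mkl1 siRNA it was 1, and it became 0 with the mean of all probe sets, 2 (Sox9 and Gata3) with DMSO as the control and 4 at 1.5-fold; between the controls it was 0, and 2 at 1.5-fold. The median difference of the 10 genes with Y-27632 was -0.03, 0.25 over the 7 genes past a filter at the 75th percentile (8.08) and 0.29 against control siRNA; with Mkl1 siRNA it was 0.10, and -0.092 against DMSO. These and the values of single genes were set against the median absolute difference between the control arrays, 0.172, for want of replicates. By that measure the single-gene differences moved in 3 of 30 cases with the mean of probe sets. Without _s_at, _x_at and _a_at probe sets they moved in 1 of 27. Many of these cases could not move. Gata3, Nr2f1, Twist1 and Hes1 have 1 probe set each, and in the second setting only Runx1t1 changed its probe set. The differences moved in 16 of 20 cases with the other control array and in none with loess. A filter cannot change the difference of a gene it keeps. Median centring subtracted only 0.0023, 0.00055 and -0.0089, so these settings could not move a value either. With the other control 14 of 20 kept their sign. No leave-one-out or paired analysis was possible because each group had 1 array. Signal over background limits the weak probe sets, and the depth of an array has no count.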
